A study of Mus musculus with 4 samples.

Results

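The CHD genes (*Chd1* to *Chd9*) and *Adnp* were examined in the mouse prefrontal cortex (PFC) after knockdown of *Ash1L*. They make up 10 of the 23420 gene symbols counted, were taken by symbol, and all 10 were among the 16232 genes with enough counts to be tested. *Ash1L* encodes a histone methyltransferase that is a risk factor for autism. The groups were 2 control samples (labelled GFP_AAV9) and 2 *Ash1L* shRNA samples (labelled ASH1L_AAV9), all from C57BL6/J mice. The adeno-associated virus (AAV) was injected into the medial PFC, and the shRNA was driven by the U6 promoter in a vector that also carried GFP. Punches with GFP fluorescence were taken as bulk tissue, so RNA of infected and uninfected cells of every type was read together. By the published methods, tissue of 3 mice was pooled per sample, injection took place at an age of 5 weeks and the control virus carried a scrambled shRNA, where the labels name GFP alone. The design text counts differently, with 3 animals injected with *Ash1L* shRNA and 2 control animals, all 6 to 8 weeks old.

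CHD proteins (chromodomain helicase DNA-binding) are motors of the SNF2 type that use ATP to slide, space or evict nucleosomes. Their paired chromodomains read the histone tail. CHD1 and CHD2 act with transcribing polymerase. CHD3, CHD4 and CHD5 are alternative ATPases of the NuRD complex, which joins remodeling with histone deacetylation, and CHD5 is the form best known from neurons. CHD6, CHD7, CHD8 and CHD9 form the remaining branch, in which CHD7 is the gene of CHARGE syndrome and CHD8 a leading autism risk gene. ADNP is a zinc finger and homeodomain protein that joins CHD4 and heterochromatin protein 1 (HP1) in the ChAHP complex. Variants in the human counterparts of several of these genes cause neurodevelopmental disorders.

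The 250 bases before the start site are shown for *Chd5* and *Adnp*, which fell, and for *Chd4*, whose level hardly differed. Whether promoter sequence is related to these levels was not tested. RefSeq windows (GRCm38.p6, the build of mm10) were matched for *Chd4*, *Chd5*, *Chd6*, *Chd8*, *Chd9* and *Adnp*, and not for *Chd1*, *Chd2*, *Chd3* and *Chd7*. The sequences run 5′ to 3′ on the strand of the gene, at chr4:152338401-152338650 (plus strand) for *Chd5*, chr2:168207113-168207362 (minus strand) for *Adnp* and chr6:125095731-125095980 (plus strand) for *Chd4*. Capitals mark GC boxes (GGGCGG or its reverse complement) and CRE half-sites (CGTCA or its reverse complement).
Chd5: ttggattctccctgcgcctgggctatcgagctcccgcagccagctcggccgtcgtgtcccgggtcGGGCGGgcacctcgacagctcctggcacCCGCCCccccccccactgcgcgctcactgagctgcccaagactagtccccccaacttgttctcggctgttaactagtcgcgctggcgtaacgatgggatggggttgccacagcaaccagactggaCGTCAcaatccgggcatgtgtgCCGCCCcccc
Adnp: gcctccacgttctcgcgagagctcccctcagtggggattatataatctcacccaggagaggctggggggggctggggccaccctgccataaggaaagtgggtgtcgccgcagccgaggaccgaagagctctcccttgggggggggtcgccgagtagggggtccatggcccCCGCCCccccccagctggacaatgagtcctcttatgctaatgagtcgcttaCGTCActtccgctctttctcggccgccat
Chd4: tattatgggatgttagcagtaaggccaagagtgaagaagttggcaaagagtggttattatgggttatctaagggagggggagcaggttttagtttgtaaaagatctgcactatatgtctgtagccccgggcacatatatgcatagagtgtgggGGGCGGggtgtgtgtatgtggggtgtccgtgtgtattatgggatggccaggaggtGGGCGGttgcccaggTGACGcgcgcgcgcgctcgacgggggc
These windows held at least 1 GC box each, as 32.7% of all 32851 RefSeq windows of that length did. A CRE half-site, the core of the element bound by the activity-dependent factor CREB, stood once in each of them, against 17.8% of all windows. The windows of *Chd5*, *Adnp* and *Chd4* held 21, 15 and 12 CpG and 67.2%, 64% and 54% GC. Medians over all windows were 6 CpG and 52.4% GC, so the shares given for all windows are not matched for base composition. In the first windows of *Chd6*, *Chd8* and *Chd9* a GC box was present and the half-site was not. The full CRE palindrome (TGACGTCA, in 1.55% of all windows), the TATA box (TATAAA, 12.4%), the E-box (CACGTG, 6.02%) and the NRF1 palindrome (0.782%) were in none of the member windows. All motifs were searched on both strands, and the half-site lies within the CRE palindrome. The ETS (CCGGAAG, 6.91%), YY1 (AAGATGGCG, 0.606%) and ZNF143 (ACTACAA, 2.81%) elements were also searched and were absent, while the CCAAT box (CCAAT, 33.8%) was in the first windows of *Chd6* and *Chd8* and in a second window of *Chd4*. The first window of *Chd9* lies wholly within an annotated exon. A match of letters is a description and not evidence of a bound site.

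Counts summed to between 14251190 and 35764874 per sample, lowest in control 1, so counting error differed between samples. *Ash1l* itself, the target of the shRNA, had TMM-normalized counts (counts scaled to a common library size) of 5642 and 6679 in controls 1 and 2, and of 4965 and 3166 in *Ash1L* shRNA samples 1 and 2. Both *Ash1L* shRNA samples lay below both controls, and sample 2 was much the lower. Its log2 fold change was -0.60 (standard error 0.22), at an unadjusted P of 0.0362. With Benjamini-Hochberg adjustment over all genes tested, as for every adjusted p here, edgeR's quasi-likelihood test gave 0.275. Leaving out single samples moved the log2 fold change between -0.97 and -0.31. In edgeR's fit the unadjusted P of *Ash1l* rose above 0.05 without control 1 (0.0603), without control 2 (0.175), without *Ash1L* shRNA sample 2 (0.0574) and with gene length offsets (0.0586). Markers of cortical excitatory neurons were present in all samples, with *Slc17a7* at 140 to 198 RPKM (reads scaled for exonic length and library size). Summed RPKM of 4 choroid plexus markers was at most 2.46, and that of 5 striatal markers was 9.20 to 14.3. By the limits given below for calls, 1 of the 5 striatal markers was DOWN (8.28% of all genes) and 2 were UP (8.61%).

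Measured per length, the NuRD ATPases led the family. *Chd3* stood at 76.0 and 83.9 RPKM in the controls, *Chd5* at 40.2 and 41.3, and *Chd4* at 35.4 and 35.2. *Adnp* followed at 21.7 and 25.4 RPKM. *Chd3* was at the 97.4th percentile of the genes tested in control tissue, *Chd5* at the 93.5th, *Chd4* at the 92.2nd and *Adnp* at the 87.4th. The branch of *Chd6* to *Chd9* and that of *Chd1* and *Chd2* were lower. Control means were 11.2 RPKM for *Chd6*, 10.1 for *Chd8*, 8.88 for *Chd2*, 6.96 for *Chd9* and 6.23 for *Chd1*. *Chd7* was lowest, at 1.48 and 1.73 RPKM in the controls and 1.76 and 2.06 in the *Ash1L* shRNA samples, with 288 to 837 counts behind these values. In this order, the control ranges of *Chd6* and *Chd8* overlapped, and so did those of *Chd9* and *Chd1*, while all other neighbours were separate. In *Ash1L* shRNA tissue *Chd4* passed *Chd5*, at 35.4 and 32.8 RPKM against 31.4 and 26.7. Lengths are the union of annotated exons, and isoforms that are little used in cortex would make a level per length too low.

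**Figure D1:**
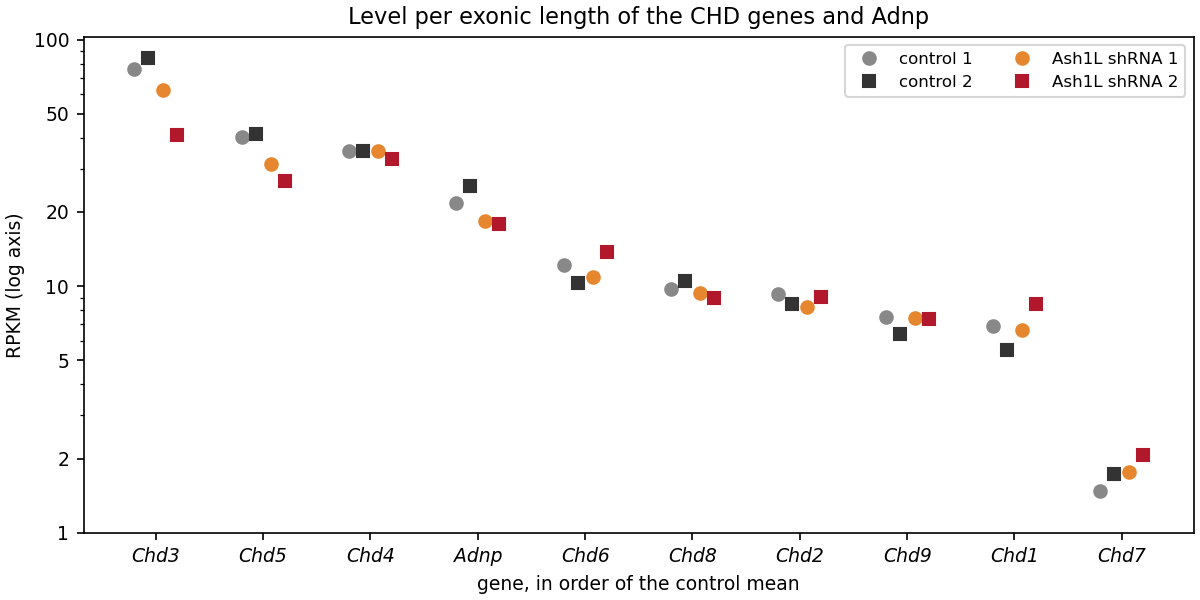
RPKM on a log axis for the 9 CHD genes and Adnp, in order of the control mean, with 1 point per sample. Chd3, Chd5, Chd4 and Adnp stand above the rest, Chd7 stands lowest, and the Ash1L shRNA samples are below the controls for Chd3, Chd5 and Adnp.

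Which remodelers changed with *Ash1L* knockdown was asked with the limits of the study, an unadjusted P under 0.05 together with a change of 1.2-fold or more, called DOWN or UP. Of the 10 genes, *Chd3*, *Chd5* and *Adnp* were DOWN and 0 were UP. Over all genes tested, 8.28% were DOWN and 8.61% were UP. After Benjamini-Hochberg adjustment, 0 of the 10 were under 0.05 by edgeR's quasi-likelihood test, by its likelihood ratio test or by DESeq2. At an unadjusted P under 0.05 the first of these tests gave 3. That adjusted limit was passed by 0.00616% of all genes in the lower direction and by 0% in the higher, and 16.9% had an unadjusted P under 0.05 in either. Counts of both *Ash1L* shRNA samples lay below both controls for 4 of the 10 genes (26.8% of all genes) and above both for 1 (26.5%). Across the 10 genes the log2 fold change had a median of -0.05, against -0.0027 over all genes tested, and 6 of the 10 were below 0 (50.3% of all genes).

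*Chd3* (ENSMUSG00000018474, chromosome 11 of mm10, 69343273 to 69369406, minus strand), the most abundant NuRD ATPase here, showed the largest fall. It had 14778 and 16317 normalized counts in controls 1 and 2, and 12122 and 7989 in *Ash1L* shRNA samples 1 and 2. The groups did not overlap, and sample 2 was far below sample 1. Means were 15548 ± 1088 (SD, n = 2) and 10055 ± 2923 (SD, n = 2). On the log2 scale the fold change was -0.63 (standard error 0.21, 95% confidence interval -1.13 to -0.13), and the adjusted p by edgeR's test 0.260. *Chd3* was not called in the same edgeR fit without control 1, at an unadjusted P of 0.0566, or without control 2, at 0.105. Without *Ash1L* shRNA sample 1 the log2 fold change was -0.97 and edgeR's adjusted p 0.0047, which over all alternatives ran up to 0.870. In that fit 8.23% of all genes were lower at an adjusted p under 0.05, *Chd5* among them. Without *Ash1L* shRNA sample 2 the log2 fold change was -0.36.

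*Chd5* (ENSMUSG00000005045, chromosome 4, 152338651 to 152390194, plus strand), the neuron-enriched NuRD ATPase, fell in a more even way. The controls had 8867 and 9108 normalized counts, a close pair, and the *Ash1L* shRNA samples had 6936 and 5889. No sample of a group reached the range of the other group. The log2 fold change was -0.49 (standard error 0.13, 95% interval -0.79 to -0.18), with an adjusted p of 0.253 in edgeR's test. It stayed between -0.61 and -0.37 when single samples were left out, and the P rose to 0.0506 (edgeR's fit) without control 2.

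*Chd4* (ENSMUSG00000063870, chromosome 6, 125095981 to 125130591, plus strand), the NuRD and ChAHP ATPase used in most cell types, differed little between the groups. Its normalized counts were 6535 and 6506 in the controls and 6531 and 6052 in the *Ash1L* shRNA samples. *Ash1L* shRNA sample 1 lay between the controls. The log2 fold change was -0.05 (standard error 0.11), and its 95% interval reached from -0.32 to 0.21, so that a fall of more than 19.7% lay outside it. Under edgeR's test the adjusted p was 0.834.

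Relative transcript levels of the NuRD ATPase genes were compared as shares of the summed RPKM of *Chd3*, *Chd4* and *Chd5*. These are shares of RNA in bulk tissue, and protein in the complex was not measured. *Chd3* took 50.1% and 52.3% in the controls, and 48.3% and 40.9% in the *Ash1L* shRNA samples. The share of *Chd4* was 23.3% and 22.0% in the controls against 27.4% and 32.6%. Neither share overlapped between the groups, and both moved further in *Ash1L* shRNA sample 2. The share of *Chd4* gained 7.34 percentage points and that of *Chd3* moved by -6.66. Each had an exact permutation p of 0.333 (two-sided), which is the smallest that 2 against 2 samples allow. As parts of a common sum, the shares restate the lower levels of *Chd3* and *Chd5*. The RPKM of *Chd4* itself did not rise, at 35.4 and 35.2 in the controls and 35.4 and 32.8 in the *Ash1L* shRNA samples. The share of *Chd5* was 26.5% and 25.7% in the controls and 24.3% and 26.5% in the *Ash1L* shRNA samples, and its groups overlapped. Summed over the trio, the RPKM was 152 and 160 in the controls and 129 and 101 after *Ash1L* knockdown. The ratio of *Chd3* to *Chd4* was 2.15 and 2.38 in the controls and 1.76 and 1.25 in the *Ash1L* shRNA samples.

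**Figure D2:**
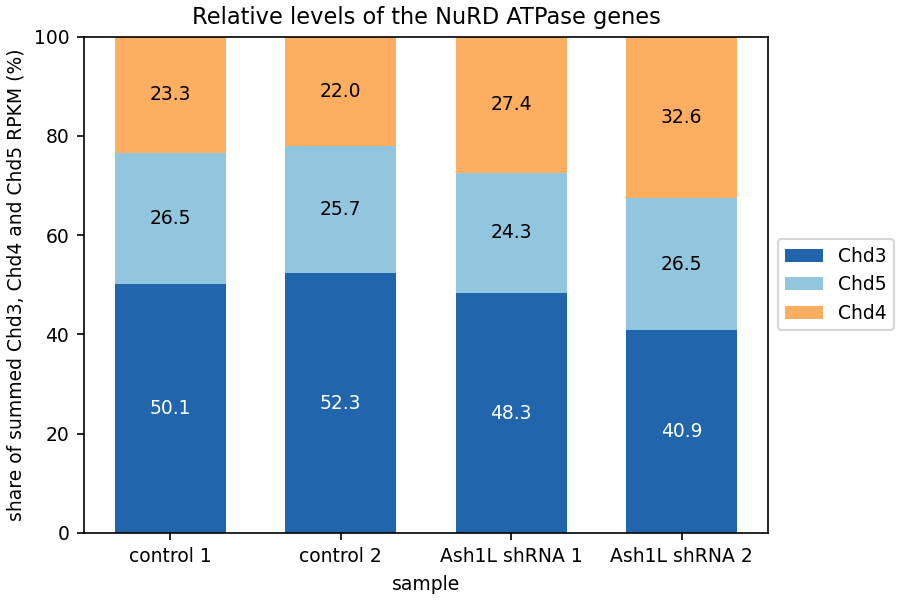
Share of each gene in the summed RPKM of Chd3, Chd4 and Chd5, in percent, with 1 stacked bar per sample. The segment of Chd4 is larger and that of Chd3 smaller after Ash1L knockdown in either sample, with the smallest Chd3 segment, 40.9%, in sample 2.

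*Adnp* (ENSMUSG00000051149, chromosome 2, 168180986 to 168207112, minus strand) was lower in both *Ash1L* shRNA samples. Its normalized counts were 2672 and 3134 in the controls and 2268 and 2205 in the *Ash1L* shRNA samples. The *Ash1L* shRNA pair was tight and the control pair wider, without overlap. Means were 2903 ± 327 (SD, n = 2) and 2237 ± 44.5 (SD, n = 2). The log2 fold change was -0.38 (standard error 0.12, 95% interval -0.68 to -0.08), and edgeR's adjusted p was 0.260. Without control 2 the log2 fold change was -0.26, and *Adnp* was not called, at an unadjusted P of 0.168 in edgeR's fit. A read-through gene model, Gm20716, shares 4393 of the 5350 exonic bases of *Adnp* in GENCODE and is not analysed here.

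The remaining CHD genes did not pass the limits in either direction. *Chd8* (ENSMUSG00000053754, chromosome 14), whose protein binds promoters and β-catenin, had 3716 and 4000 normalized counts in the controls and 3558 and 3422 in the *Ash1L* shRNA samples. These groups did not overlap, but the log2 fold change was only -0.14 (95% interval -0.41 to 0.12). For *Chd7* (ENSMUSG00000041235, chromosome 4), needed for neural crest and oligodendrocyte lineage development, the values were 470 and 549 against 560 and 654. It was the one CHD gene with both *Ash1L* shRNA samples above both controls, at a log2 fold change of 0.25 (95% interval -0.13 to 0.62), which ranged from 0.13 to 0.36 when single samples were left out. *Chd1* (ENSMUSG00000023852, chromosome 17), whose chromodomains bind H3K4me3, had 1390 and 1111 normalized counts in the controls and 1329 and 1706 in the *Ash1L* shRNA samples. Sample 2 alone stood above the controls. The log2 fold change of *Chd1* was 0.28 (95% interval -0.14 to 0.70). Without *Ash1L* shRNA sample 1 *Chd1* was UP, at 0.45, and edgeR's adjusted p was 0.0994, the lowest of its alternatives, which ran up to 0.937. In that fit 14.4% of all genes were UP and 16.5% DOWN. The log2 fold change of *Chd1* was 0.10 without *Ash1L* shRNA sample 2 and 0.12 without control 2.

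*Chd2* (ENSMUSG00000078671, chromosome 7), linked in humans to epileptic encephalopathy, had 3049 and 2798 normalized counts in the controls and 2712 and 2978 in the *Ash1L* shRNA samples. Its groups overlapped, and the 95% interval of the log2 fold change reached from -0.32 to 0.24. Exons of 1810026B05Rik, a noncoding transcript of the same strand, cover 18.4% of the exonic length of *Chd2*, and reads there may be lost or shared. For that transcript the log2 fold change was 0.15 (standard error 0.23). *Chd6* (ENSMUSG00000057133, chromosome 2) had 5350 and 4540 against 4802 and 6069 normalized counts, with an interval of -0.24 to 0.51. *Chd9* (ENSMUSG00000056608, chromosome 8) had 4009 and 3405 against 3963 and 3919, with an interval of -0.21 to 0.39. For all 3 genes at least 1 *Ash1L* shRNA sample lay within the control range. The intervals of *Chd6* and *Chd9* reach, in the higher direction, as far from 0 as the fall of *Adnp*.

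**Figure D3:**
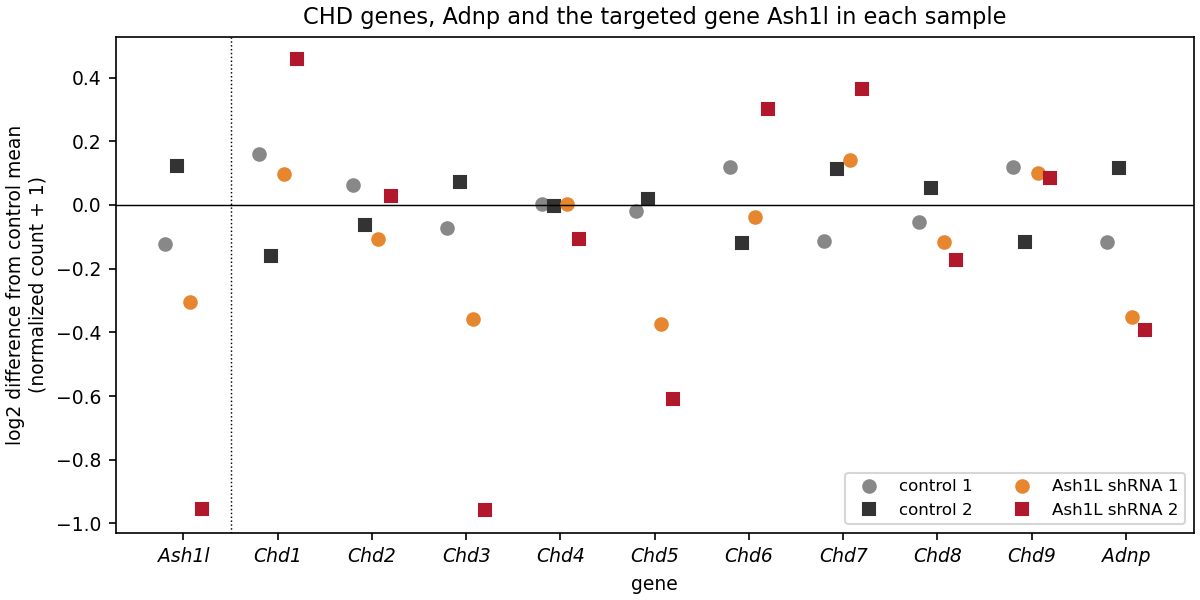
Difference of each sample from the control mean on the log2 scale of normalized counts plus 1, for Ash1l and the 10 genes. Chd3, Chd5 and Adnp are lower in both Ash1L shRNA samples, while Chd4 stays near 0. Ash1L shRNA sample 2 is the lowest sample for Ash1l, Chd3, Chd4, Chd5, Chd8 and Adnp.

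The 2 *Ash1L* shRNA samples did not differ from the controls to the same degree. *Ash1l* was 0.31 and 0.96 below the control mean in samples 1 and 2 on the log2 scale. The same differences were -0.36 and -0.96 for *Chd3*, -0.37 and -0.61 for *Chd5*, and -0.35 and -0.39 for *Adnp*. *Chd1*, *Chd6* and *Chd7* were highest in sample 2, at 0.46, 0.30 and 0.36 above the control mean. Whether the level of these genes is related to that of *Ash1l* was not tested.

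Transcripts of *Chd5* and *Chd3* have the highest GC content of the 10 genes, at 57.4% and 56.1%, and *Chd4* follows at 53.0%. When a trend on GC content was taken out of each sample, the log2 fold change was -0.56 for *Chd3*, -0.41 for *Chd5*, -0.39 for *Adnp* and -0.02 for *Chd4*. With a trend on gene length taken out, the values were -0.59, -0.45, -0.35 and -0.02. *Chd3*, *Chd5* and *Adnp* were DOWN under both corrections.

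In bulk tissue, fewer cells of a type and less RNA per cell cannot be told apart. Over all genes tested, 8.28% were DOWN and 8.61% were UP. Both *Ash1L* shRNA samples lay below both controls for 26.8% of all genes and above both for 26.5%. Of 6 markers of excitatory cortical neurons, 3 were DOWN and all 6 had both *Ash1L* shRNA samples below both controls. The same separation was seen for 4 of 6 markers in each of the pan-neuronal, interneuron and astrocyte lists, and 2 of 6 oligodendrocyte markers. Both *Ash1L* shRNA samples lay above both controls for 1 of 6 pan-neuronal and 2 of 6 endothelial markers. For the excitatory neuron markers, the summed RPKM was 414 and 485 in controls and 380 and 314 after *Ash1L* knockdown. Of 6 pan-neuronal markers 0 were DOWN, and their sum was 970 and 1001 against 898 and 807 RPKM. Interneuron markers had 2 of 6 DOWN and a sum of 297 and 261 against 229 and 179 RPKM. Like *Chd3*, *Chd4*, *Chd5*, *Chd8* and *Adnp*, these sums were lowest in *Ash1L* shRNA sample 2. That was not particular to neurons. The astrocyte, oligodendrocyte, oligodendrocyte precursor and microglia sums given below were also lowest in that sample, and the endothelial sum in control 2. Astrocyte markers had 4 of 6 DOWN, with a sum of 471 and 497 against 399 and 326 RPKM. Oligodendrocyte markers had 0 of 6 called (416 and 482 against 451 and 380 RPKM), and endothelial markers 0 of 6 (75.2 and 61.1 against 75.2 and 62.1 RPKM). Microglia markers had 0 of 6 called and their sum in *Ash1L* shRNA sample 2 was 104 RPKM, against 199 to 249 in the other samples. Among 6 markers of oligodendrocyte precursors, 2 were UP, *Pdgfra* and *Vcan*, and 4 had both *Ash1L* shRNA samples above both controls. Their median log2 fold change was 0.31. *Pdgfra*, *Cspg4* and *Vcan* were highest in *Ash1L* shRNA sample 2, while *Olig1*, *Olig2* and *Gpr17* were highest in sample 1. The summed level of the 6 was 49.1 and 48.0 against 63.3 and 45.8 RPKM, and *Gpr17* within it was 12.8 and 13.3 against 19.6 and 5.14 RPKM. No marker of these lists was at 0 in all samples, and the part of cell composition in the results for the CHD genes and *Adnp* was not tested.

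The partners of these ATPases and other remodelers were taken as 4 lists with 40 genes, of which 39 were tested and *Srcap* was not analysed here. Of the 39, 1 was DOWN (2.56%, against 8.28% of all genes tested), 0 were UP (8.61% of all genes) and the median log2 fold change was -0.03. The NuRD subunits other than CHD had 1 of 12 DOWN (8.33%, against 8.28% of all genes tested) and a median of -0.05. Both *Ash1L* shRNA samples lay below both controls for 6 of the 12 (26.8% of all genes) and above both for 4 (26.5%). *Mbd3*, which encodes the subunit that tethers the deacetylase module, was the one called. It had 767 and 948 normalized counts in the controls and 662 and 462 in the *Ash1L* shRNA samples. The log2 fold change of *Mbd3* was -0.61 (standard error 0.21), and edgeR's adjusted p was 0.262. The histone chaperones *Rbbp4* and *Rbbp7* and the deacetylase *Hdac2* had both *Ash1L* shRNA samples above both controls, with log2 fold changes of 0.14, 0.29 and 0.14, and were not called. *Rbbp7* passed the limits as UP with library-size scaling (0.33) and without *Ash1L* shRNA sample 1 (0.40), and stood at 0.17 without sample 2. *Mta3*, a scaffold subunit, had one of -0.18. The call of *Mbd3* was lost without control 2 (log2 fold change -0.45) and without *Ash1L* shRNA sample 2 (-0.38).

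Among the partners and relatives of ADNP, 0 of 5 were called and the median was -0.07. *Cbx5* (HP1α) had the lowest log2 fold change, -0.32 (standard error 0.16), with 9526 and 9031 normalized counts in the controls and 8510 and 6387 in the *Ash1L* shRNA samples. It was DOWN without *Ash1L* shRNA sample 1, at -0.54, and stood at -0.12 without sample 2. *Cbx3* (HP1γ), *Adnp2* and *Pogz* had values of 0.07, -0.07 and -0.14. Of 11 tested genes for ISWI remodelers and their partners, 0 were called and the median was -0.03. *Smarca5*, the main ISWI ATPase, stood at 0.26 on the log2 scale, with both *Ash1L* shRNA samples above both controls, and passed the limits as UP with library-size scaling (0.30), upper-quartile scaling (0.28) or gene length offsets (0.29), and without *Ash1L* shRNA sample 1 (0.33). *Bptf*, *Baz1b* and *Rsf1*, subunits that recruit ISWI ATPases, had values of -0.02, 0.01 and -0.05. Other SNF2-like remodelers had 0 of 11 called and a median of 0.01. *Atrx*, *Ep400*, *Ercc6* and *Shprh* had values of -0.14, -0.07, -0.08 and 0.22. *Shprh* was UP without *Ash1L* shRNA sample 1, at 0.35, and stood at 0.08 without sample 2. *Baz1a* of the ISWI list and *Chd1l* of the SNF2-like list, named here after their values were seen, were also UP in the fit without *Ash1L* shRNA sample 1. Whether *Chd3*, *Chd5* and *Adnp* differ from these genes as a group was not tested.

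**Figure D4:**
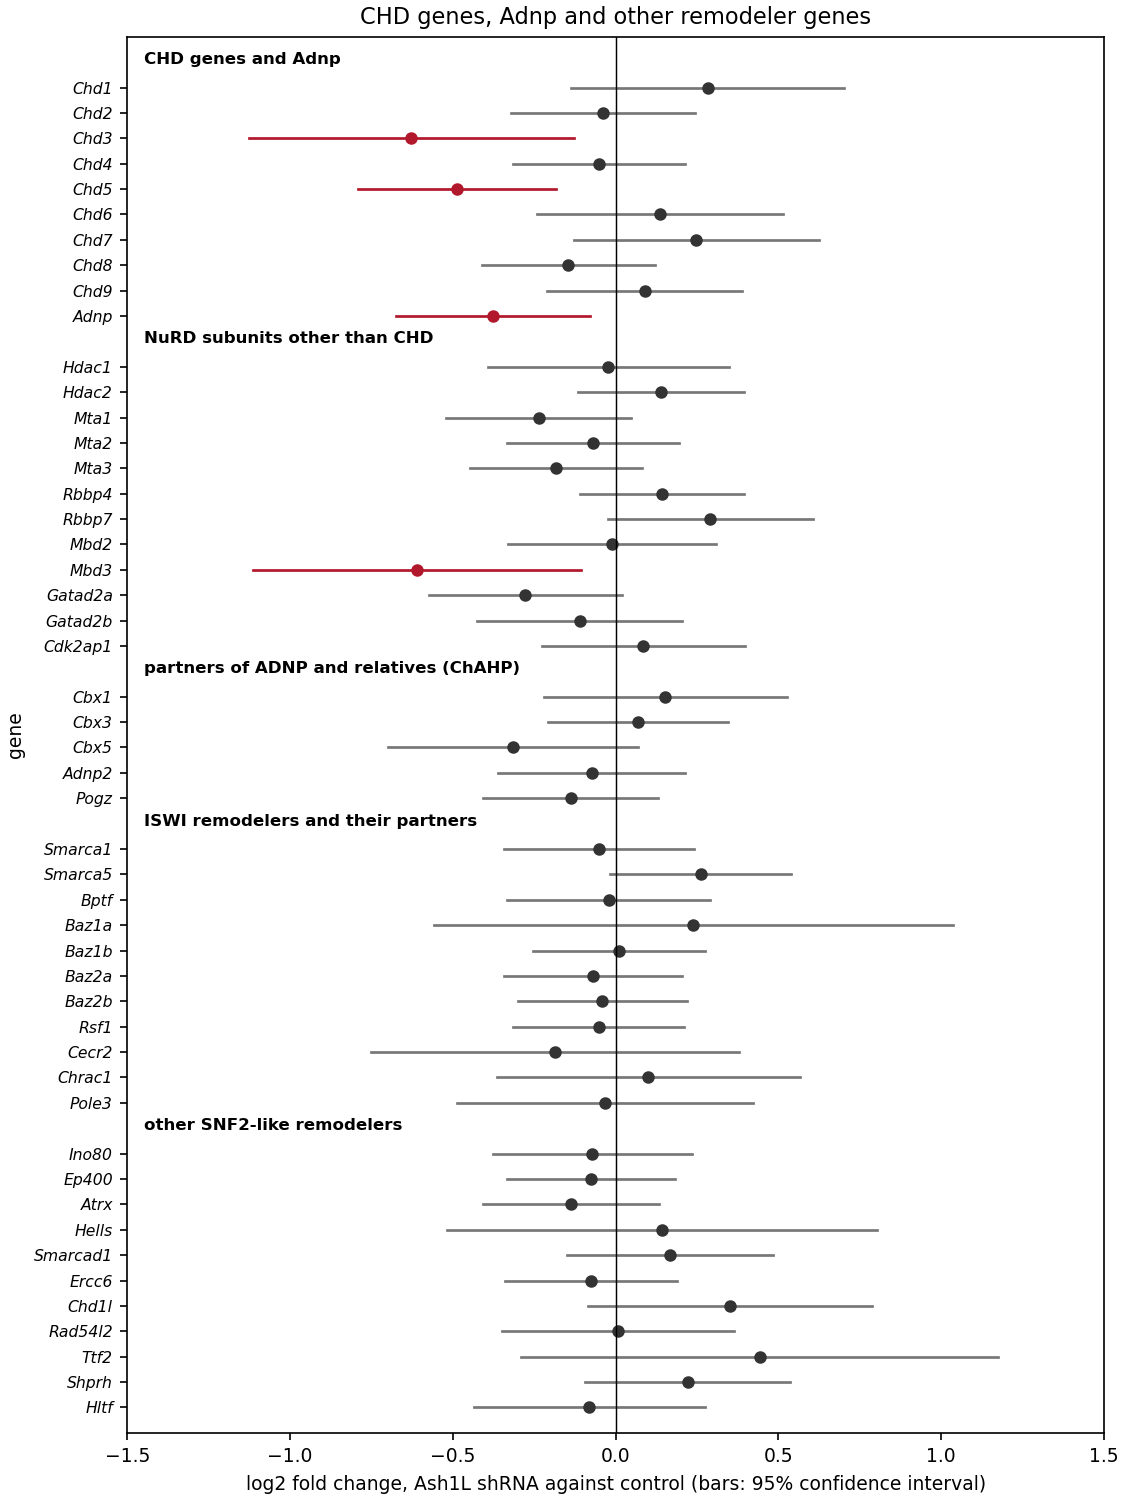
Log2 fold change of Ash1L shRNA against control for the 10 genes and the 39 tested genes of the 4 lists, with 95% confidence intervals from edgeR's fit, and with genes past the limits of DOWN or UP in red. Chd3, Chd5, Adnp and Mbd3 are in red, all below 0.

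Over the alternative settings that kept all samples, the log2 fold change ran from -0.66 to -0.56 for *Chd3*, from -0.49 to -0.41 for *Chd5* and from -0.39 to -0.34 for *Adnp*. Leaving out single samples gave ranges of -0.97 to -0.36, -0.61 to -0.37 and -0.48 to -0.26. All of these values lay below 0. Without control 2, 0 of the 10 genes and 1.86% of all genes were DOWN. At a limit of 1.5-fold, *Chd3* alone was DOWN.

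**Figure D5:**
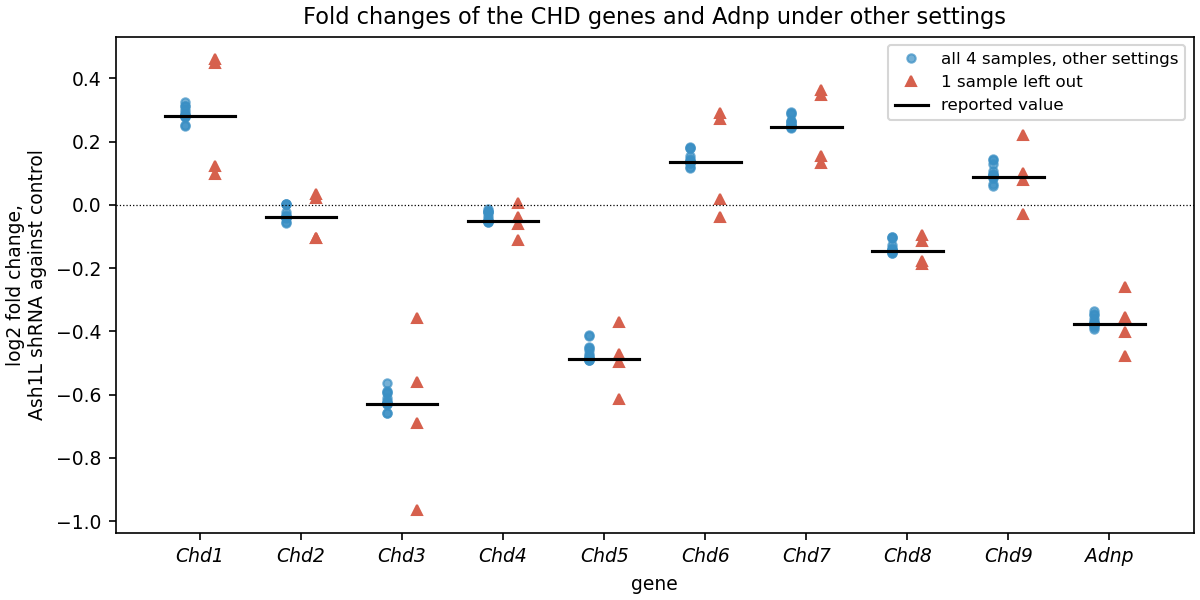
Log2 fold change of each gene as reported (line), under other settings with all 4 samples (circles) and with 1 sample left out (triangles). Points of Chd3, Chd5 and Adnp stay below 0, and those of Chd2, Chd4, Chd6 and Chd9 lie on both sides of 0.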

How the data were processed

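RNA was read from bulk PFC punches of 2 control and 2 *Ash1L* shRNA samples, grouped by their titles, and stranded libraries depleted of ribosomal RNA were sequenced. The values the authors deposited are raw counts per gene symbol. Their methods name RNA STAR on mm10 and featureCounts, whereas the labels describe TopHat2, and settings for strand and multiple mapping are not given in the sources used here. Nothing says that same-numbered samples were processed together. Counting error is largest in control 1, the sample with the fewest counts.

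Genes were filtered (filterByExpr), scaled by TMM and tested with edgeR 4.0.16 (R 4.3.3; glmQLFit with robust estimation, glmQLFTest), with Benjamini-Hochberg adjustment over 16232 genes. The study used DESeq2, which was an alternative here (1.42.0). Standard errors are the fold change over the square root of F, and 95% intervals use the degrees of freedom of the test. Exonic length, GC content and coordinates came from GENCODE vM21, which matched 98.3% of the symbols by name or older name. Lists hold at most 4 named genes by mean count and any called gene. The 10 genes and the lists were chosen with earlier results of these data known. Chi-square per degree of freedom between replicates was 14.8 for control and 42.3 for *Ash1L* shRNA, so replicates differed by more than counting noise. With 2 samples per group, edgeR's p-values rest only on the spread between these samples, and for each gene part of that spread is borrowed from other genes. Alternatives were other scalings, filters and tests, a replicate block, offsets for length and GC content, a limit of 1.5-fold and leaving out single samples.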

Additional observations from a re-analysis of the deposited data

How the results depend on the processing

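With 2 samples per group, a single sample decided most counts. Left out in turn, the samples gave 306 to 2718 DOWN and 423 to 2368 UP genes over all genes tested, against 1344 and 1397 with all samples, and 0 to 3 DOWN and 0 to 1 UP among the CHD genes and *Adnp*, where the lone sample of a group is assumed to vary like the other group. A limit of 1.5-fold gave 491 DOWN and 765 UP genes, and 1 of the 10 genes DOWN. A replicate block gave 1020 DOWN and 1052 UP genes, and *Chd3*, *Chd5* and *Adnp* remained DOWN. In that block with gene length offsets *Adnp* was not called (-0.34), nor was *Ash1l* (-0.59), nor was *Mbd3* in it with GC content offsets (-0.52). No source says that same-numbered samples were processed together, so the numbers were not taken as pairs. Deviations of same-numbered samples correlated at -0.11 across genes. With 2 samples per group the crossed correlation is fixed as its opposite, so the value cannot decide the pairing. A block with crossed numbers, added after seeing that correlation, gave 1736 DOWN and 1541 UP genes, and 1 of the 10 genes, *Chd1*, was UP. *Chd2* turned from -0.04 to 0.0029 with library-size scaling, 0.0021 with gene length offsets and 0.0023 with the replicate block and those offsets, and *Bptf* turned from -0.02 to 0.0215, 0.0189 and 0.0162. With samples left out, the log2 fold change ran from -0.11 to 0.034 for *Chd2*, 0.096 to 0.46 for *Chd1*, 0.13 to 0.36 for *Chd7*, -0.11 to 0.0045 for *Chd4*, -0.039 to 0.29 for *Chd6*, -0.029 to 0.22 for *Chd9*, -0.15 to 0.092 for *Bptf* and -0.040 to 0.067 for *Baz1b*. The difference in the share of *Chd5* ran from -1.78 to 0.42 percentage points, that of *Chd3* from -10.4 to -2.95 and that of *Chd4* from 4.73 to 9.94. The cause of these shifts was not tested. At an adjusted p under 0.05, DESeq2 called 162 genes lower and 259 higher and edgeR's likelihood ratio test 158 and 321, with 0 of the 10 genes among them. Without *Ash1L* shRNA sample 1, 2 of the 10 passed, *Chd3* and *Chd5*, both lower, as did 1358 lower genes (8.23%) and 1144 higher genes of 16494 tested.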
